A study of Mus musculus with 2 samples.

Results

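The loci of 3 genes that define follicular helper T cells, Bcl6, Cxcr5 and Pdcd1, were examined in chromatin from mouse Th2 cells. Each gene was represented by a fixed window of the mm9 genome: chr16:23930001-24030000 for Bcl6 (100 kb), chr9:44290001-44350000 for Cxcr5 (60 kb) and chr1:95910001-95980000 for Pdcd1 (70 kb). The rule for the windows uses position alone and no measured value. Together they hold 230 of the 1-kb bins into which the genome was divided, of which 225 held a read. The whole series had 2246042 such covered bins.

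The data come from chromatin immunoprecipitation followed by sequencing (ChIP-seq). One library (H3KAc) was made with an antibody to acetylated lysines of histone H3, and the other with polyclonal rabbit IgG, which has no chosen target and measures background. Both came from C57BL/6 spleen cells positive for CD4 and CD62L that had been activated with anti-CD3/CD28 for 5 days, in IL-4 at 10 ng/ml and anti-IFN-g at 2 µg/ml, and had then rested for 3 days. These conditions drive naive helper T cells towards the Th2 fate in culture. The number of animals, and whether cells were pooled, are not stated in the labels. No cell sort after culture is described.

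Follicular helper T cells are the helper cells that enter B cell follicles and support germinal centres. Bcl6 encodes a zinc-finger repressor that is needed for their formation. Cxcr5 encodes the receptor for the chemokine CXCL13, which draws cells into follicles, and Pdcd1 encodes PD-1, an inhibitory receptor that these cells carry at high levels. Th2 cells make interleukin 4 and follow the factor GATA3, and they are a separate helper fate. Acetylation of histone H3 lysines is found at active promoters and enhancers. Its level was therefore measured in windows around follicular helper genes, in cells of another helper programme.

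Sequences at the starts of these genes are shown first because promoters rich in CpG dinucleotides and promoters poor in them are known to differ in their histone acetylation, and because Bcl6 is regulated by STAT factors and by its own product. RefSeq promoter windows (250 bases before to 50 after a gene start, build GRCm38.p6) matched 2 of the 3 genes, with 2 starts for Bcl6 and 1 for Pdcd1. Cxcr5 was not matched. Capitals mark the STAT-type motif TTCNNNGAA, a palindrome that reads the same on both strands.
Bcl6 promoter 1 (GRCm38.p6 chr16:23988803-23989102, minus strand): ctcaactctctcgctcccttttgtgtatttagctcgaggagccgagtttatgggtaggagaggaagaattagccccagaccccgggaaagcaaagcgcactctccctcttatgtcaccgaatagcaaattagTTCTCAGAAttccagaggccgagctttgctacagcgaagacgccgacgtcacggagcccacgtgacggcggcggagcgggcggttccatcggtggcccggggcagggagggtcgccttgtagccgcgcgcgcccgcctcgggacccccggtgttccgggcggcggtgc
Bcl6 promoter 2 (GRCm38.p6 chr16:23981234-23981533, minus strand): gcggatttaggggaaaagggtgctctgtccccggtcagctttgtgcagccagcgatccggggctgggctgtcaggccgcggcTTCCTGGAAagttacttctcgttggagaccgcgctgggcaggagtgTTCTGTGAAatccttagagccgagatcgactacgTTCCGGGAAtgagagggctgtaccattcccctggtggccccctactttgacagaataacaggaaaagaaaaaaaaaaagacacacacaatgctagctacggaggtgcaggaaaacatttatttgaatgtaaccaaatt
Pdcd1 promoter 1 (GRCm38.p6 chr1:94052504-94052803, minus strand): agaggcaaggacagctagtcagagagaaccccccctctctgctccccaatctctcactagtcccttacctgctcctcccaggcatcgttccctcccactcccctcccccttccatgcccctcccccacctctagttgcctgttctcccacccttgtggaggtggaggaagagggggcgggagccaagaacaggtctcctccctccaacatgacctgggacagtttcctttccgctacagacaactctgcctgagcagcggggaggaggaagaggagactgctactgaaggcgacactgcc

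Promoter 1 of Bcl6 held 31 CpG dinucleotides, more than 89.4% of the 32851 promoter windows in the table, whose median was 7. Promoter 2 of Bcl6 held 14 CpG (more than 63.7%) and the Pdcd1 promoter 5 (more than 38.0%). The Pdcd1 promoter was nevertheless GC-rich, at 60.7%, close to the 62.7% of promoter 1 of Bcl6, and above the table's median of 52.7%.

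Promoter 1 of Bcl6 held 1 TTCNNNGAA match and promoter 2 held 3, against at least 1 match in 8.30% and at least 2 in 0.457% of all promoter windows. No match to this motif was present in the Pdcd1 window. On both strands of the 3 sequences, no match was found to the same palindrome with 1 more base in its spacer (6.95% of all windows), to TTCCTAGAA, a BCL6-type site and a special case of TTCNNNGAA (0.411%), to the GATA-type motifs AGATAA (11.2%) and TGATAA (9.05%), or to the AP-1 motif TGACTCA, whose reverse complement is TGAGTCA (5.20%). These matches are descriptions of letters in short windows. The sequences carry GRCm38.p6 positions, which cannot be read on the mm9 scale of the reads, so no read count below was assigned to a promoter, exon or intron.

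Neighbouring genes were taken by name and order only. In the GRCm38.p6 gene table the protein-coding neighbours are Rtp2 and Lpp for Bcl6, Bcl9l and Ddx6 for Cxcr5, and Neu4 and Fam174a for Pdcd1. Directly after the members stand the long noncoding RNA genes Gm31527 (Bcl6) and LOC108167647 (Cxcr5) and the pseudogene Gm7891 (Pdcd1). Signal in a window may therefore belong to the named gene or to a gene beside it, and these cannot be told apart here. Bcl9l, which encodes a coactivator of beta-catenin, immediately precedes Cxcr5.

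Reads were collapsed to distinct positions, a position being a chromosome, a 5′ end and a strand, and each position was moved 100 bp along its strand. The H3KAc library had 19711169 such distinct positions and the IgG library 1897666. Levels are given as reads per 1000000 distinct positions (RPM), so 1 read is 0.0507 RPM in H3KAc and 0.527 RPM in IgG. The IgG library averaged 0.845 reads per covered kb, against 8.78 in H3KAc, and it sets the precision of each ratio. There was 1 library per antibody, so no difference below has a replicate check and no p-value is given. Intervals are exact 95% intervals that cover counting error only. A ratio above 1 is not by itself evidence of acetylated histone, since mitochondrial DNA, which has no histones, had a ratio of 3.76 (2.69 to 5.43). The Th2 label was not checked against marker genes, and other follicular helper genes (Icos, Il21, Maf and others, with the BCL6 antagonist Prdm1) were not analysed here, because no gene starts on mm9 were used.

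Over whole windows, H3KAc did not exceed IgG beyond counting error at any of the 3 genes. The Bcl6 window held 1129 H3KAc reads and 112 IgG reads. That is 0.573 RPM per kb (0.540 to 0.607) in H3KAc and 0.590 RPM per kb (0.486 to 0.710) in IgG, a ratio of 0.970 (0.799 to 1.19). The Cxcr5 window held 1668 and 179 reads, or 1.41 RPM per kb (1.34 to 1.48) in H3KAc and 1.57 (1.35 to 1.82) in IgG, a ratio of 0.897 (0.769 to 1.05). The Pdcd1 window held 1058 and 94 reads, or 0.767 RPM per kb (0.721 to 0.814) in H3KAc and 0.708 (0.572 to 0.866) in IgG, a ratio of 1.08 (0.877 to 1.35). All 3 intervals include 1.

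The windows differed from each other in level and not detectably in ratio. Per kb, H3KAc at Bcl6 was 0.406 times that at Cxcr5 (0.376 to 0.438) and 0.747 times that at Pdcd1 (0.686 to 0.813). At Cxcr5 it was 1.84 times that at Pdcd1 (1.70 to 1.99). IgG followed the same order between Cxcr5 and the other windows, at 2.22 times Pdcd1 (1.72 to 2.88), with Bcl6 at 0.375 times Cxcr5 (0.294 to 0.478). IgG at Bcl6 and Pdcd1 did not differ beyond counting error (0.834, 0.628 to 1.11). For the 3 pairs, the H3KAc over IgG ratio of Bcl6 was 1.08 times that of Cxcr5 (0.839 to 1.40) and 0.896 times that of Pdcd1 (0.665 to 1.20), and that of Cxcr5 was 0.828 times that of Pdcd1 (0.630 to 1.08).

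Set against all genome tiles of the same length in which at least 80% of bins were covered, the Cxcr5 window stood near the top in both libraries. Its H3KAc level was above 98.6% of 33383 tiles of 60 kb and its IgG level above 98.5%. The Pdcd1 window was above 84.6% of 28551 tiles of 70 kb in H3KAc and above 80.1% in IgG. The Bcl6 window was above 70.6% of 19982 tiles of 100 kb in H3KAc and above 73.1% in IgG. In ratio the windows lay in the middle of the tiles, with 29.0% of tiles lower than Cxcr5, 37.4% lower than Bcl6 and 53.4% lower than Pdcd1. The lower bound of the ratio was above 1 in 16.7% to 20.5% of tiles, depending on their length, and in none of the 3 windows.

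**Figure D1:**
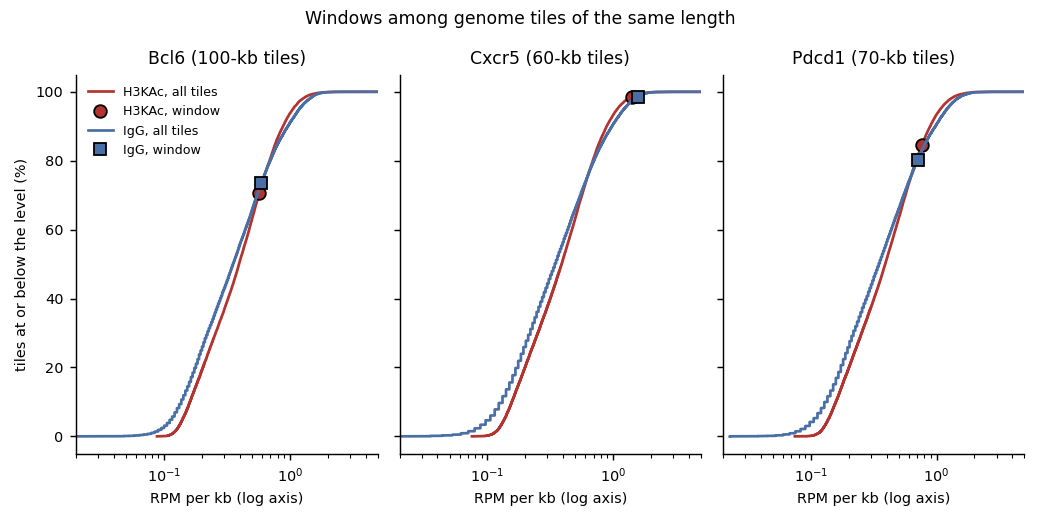
Cumulative share of genome tiles (vertical axis, percent) by level in RPM per kb (horizontal log axis) for H3KAc (red) and IgG (blue), with the window of each gene marked on the curves. The circles and squares lie close together in each panel, at 98.6% and 98.5% for Cxcr5, 84.6% and 80.1% for Pdcd1, and 70.6% and 73.1% for Bcl6.

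Each window was higher than the flanks of the same length on its sides, in both libraries. H3KAc in the Pdcd1 window was 3.90-fold the left flank (3.41 to 4.48) and 4.72-fold the right flank (4.09 to 5.48). Only 50 and 55 of the 70 bins of these flanks held reads, and per covered kb the folds were 2.87 (2.51 to 3.29) and 3.82 (3.30 to 4.43). IgG in the Pdcd1 window was 3.24-fold (2.12 to 5.10) and 3.13-fold (2.06 to 4.90) the flanks, or 2.38-fold (1.56 to 3.75) and 2.53-fold (1.66 to 3.96) per covered kb. The Cxcr5 window was 1.98-fold (1.82 to 2.15) and 2.26-fold (2.07 to 2.47) its flanks in H3KAc, and 1.99-fold (1.54 to 2.59) and 2.59-fold (1.95 to 3.48) in IgG. The Bcl6 window rose least over its flanks, 1.44-fold (1.32 to 1.58) and 1.34-fold (1.23 to 1.47) in H3KAc and 1.70-fold (1.24 to 2.34) and 1.38-fold (1.03 to 1.86) in IgG. The rise in H3KAc over the flanks was thus accompanied by a rise in IgG at each gene, and the part of background in it was not tested.

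Within the windows the signal was uneven. The H3KAc count per 1-kb bin ranged from 0 to 65 reads at Bcl6 (median 8), from 7 to 136 at Cxcr5 (median 23.5) and from 0 to 63 at Pdcd1 (median 11), against a median of 6 over all covered bins. All 60 bins of Cxcr5 were above the genome median, as were 61 of 100 at Bcl6 and 54 of 70 at Pdcd1. The 90th percentile of the genome was passed by 68.3% of bins at Cxcr5, 22.9% at Pdcd1 and 14.0% at Bcl6. Cxcr5 was thus raised over its whole width, and the other windows over parts of theirs. The 5 bins with the most H3KAc reads held similar shares of the H3KAc reads of their windows, 22.0% at Bcl6, 22.2% at Cxcr5 and 24.9% at Pdcd1. The same bins held 12.5%, 15.1% and 21.3% of the IgG reads, in this order, so at Pdcd1 the IgG share was close to that of H3KAc. No IgG read fell in 55 bins of Bcl6, 11 of Cxcr5 and 32 of Pdcd1.

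**Figure D2:**
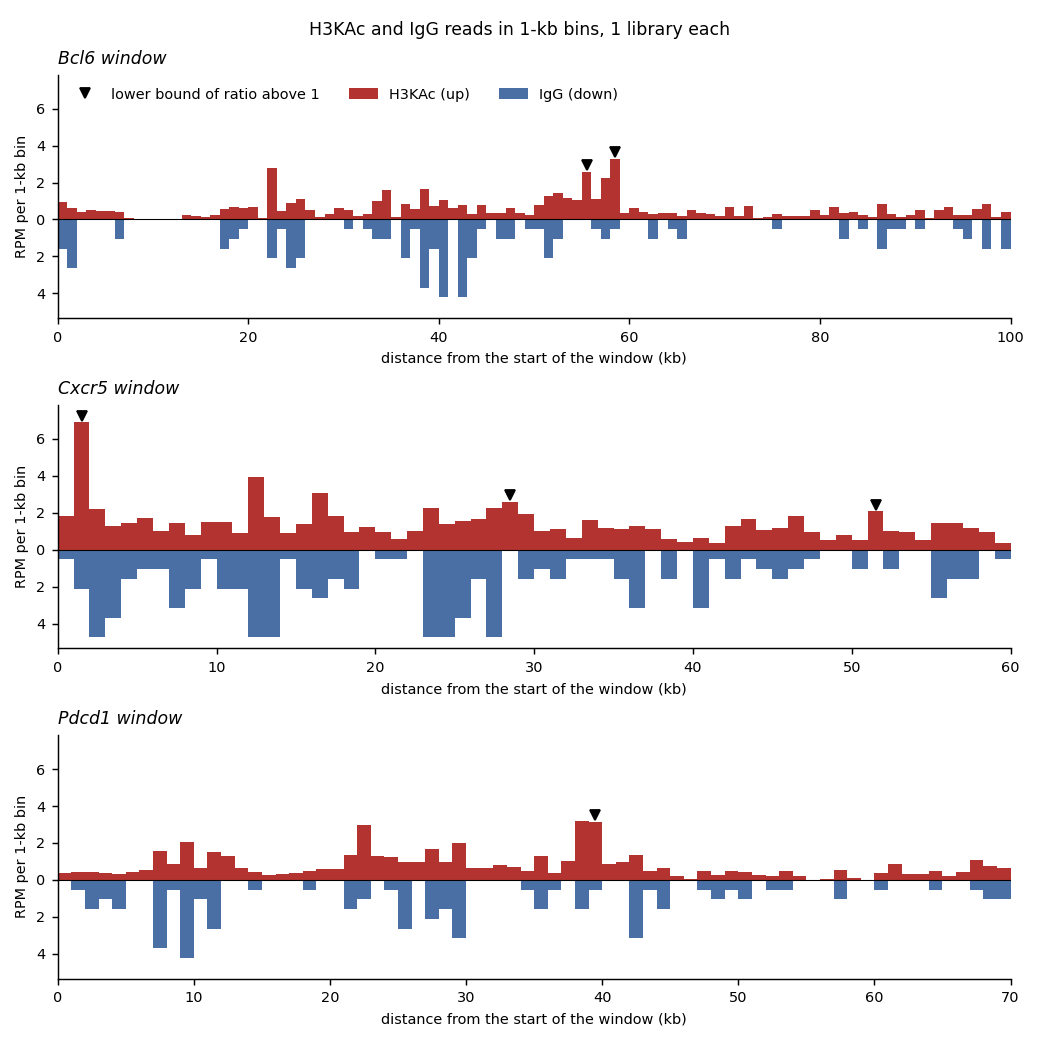
RPM in each 1-kb bin (vertical axis) against distance from the start of the window in kb (horizontal axis), with H3KAc drawn upwards in red and IgG downwards in blue, 1 library each. Triangles mark the 6 bins with a lower bound of the ratio above 1; Cxcr5 is filled along its width, while Bcl6 and Pdcd1 have separate peaks.

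H3KAc and IgG counts moved together along each window. Over 1-kb bins, Pearson's r was 0.386 at Bcl6 (100 bins, Spearman's rho 0.502), 0.364 at Cxcr5 (60 bins, 0.435) and 0.506 at Pdcd1 (70 bins, 0.461). Over all 2246042 covered bins r was 0.502 and rho 0.462. Bins of 1 window share both libraries, their mappability and their base composition, so these values are descriptions.

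A bin was called higher in H3KAc when it held at least 5 reads in both libraries together and the lower bound of its ratio was above 1. With no IgG read in the bin this takes 41 H3KAc reads, and with 1 IgG read it takes 61. Of the 199 tested bins of the windows, 6 were called (3.02%), against a background of 0.651% of 1409765 tested bins in the genome. They were 2 of 77 at Bcl6, 3 of 60 at Cxcr5 and 1 of 62 at Pdcd1. A call needs many H3KAc reads, and the windows lay above most tiles in both libraries. The background was not matched for read level, so the higher share is not by itself enrichment over IgG. No bin passed the stricter rule of a lower bound above 2, which 0.0836% of tested bins passed. In the opposite direction, the upper bound was below 1 in 8 bins, 4 at Bcl6 and 4 at Cxcr5, against 3.80% of tested bins. These were the Bcl6 bins from 23931001, 23970001, 23972001 and 23973001 and the Cxcr5 bins from 44293001, 44303001, 44314001 and 44330001, with ratios between 0.144 and 0.374. With so few IgG reads per bin, most bins could not be called in either direction at this depth.

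Bins at or above the 99th percentile of the genome in H3KAc, 46 reads, numbered 10 in the windows (4.35%), against 1.02% of all covered bins. They were 3 bins at Bcl6, 4 at Cxcr5 and 3 at Pdcd1. Joined where at most 1 bin lay between them, they formed 9 regions, numbered here in order along each window. These regions were chosen by their H3KAc level, so that level is a description, and their ratios are biased upwards by the choice. Of the 10 bins, 5 were also called higher than IgG, against 36.6% of the 22869 bins of the genome at this level. Pooled, the 10 bins had 3.45 RPM per kb in H3KAc (3.20 to 3.72) and 1.53 in IgG (1.02 to 2.19), a ratio of 2.26 (1.56 to 3.40). All bins of the genome at this level had a pooled ratio of 1.93. The other 220 bins of the windows had 0.732 RPM per kb in H3KAc and 0.853 in IgG, a ratio of 0.859 (0.769 to 0.961), which taking out the highest H3KAc bins biases downwards.

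**Figure D3:**
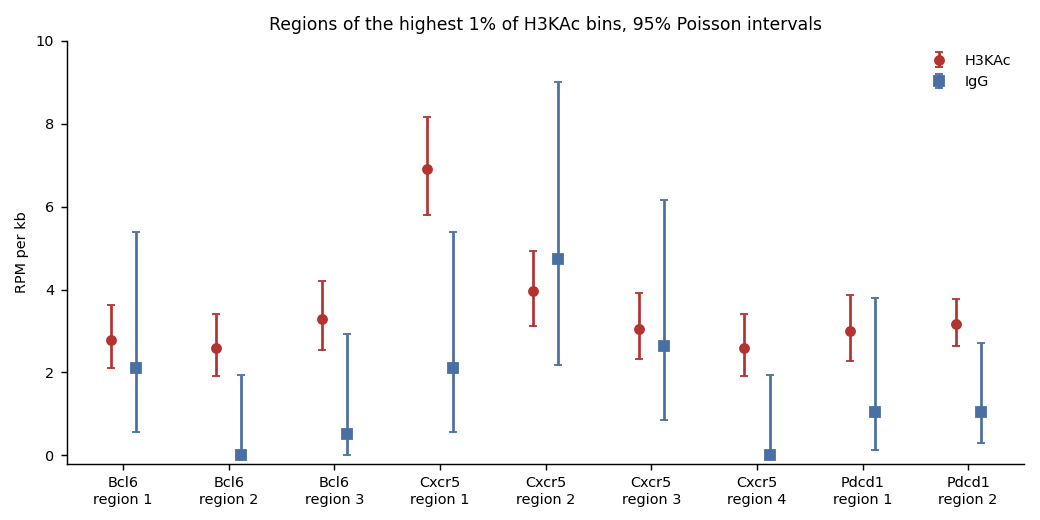
Level in RPM per kb (vertical axis) of H3KAc (circles) and IgG (squares) in the 9 regions of the highest H3KAc bins, with 95% Poisson intervals. The intervals of the libraries are separate at Cxcr5 region 1, and they overlap widely at Bcl6 region 1, Cxcr5 region 2 and Cxcr5 region 3.

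At Bcl6, needed for the follicular helper fate, the H3KAc peaks that stood above IgG lay close together near the middle of the window. Region 3 (23988001 to 23989000) held 65 H3KAc reads, or 3.30 RPM (2.55 to 4.20), and 1 IgG read, or 0.527 RPM (0.0133 to 2.94), a ratio of 6.26 (1.08 to 251). Region 2 (23985001 to 23986000) held 51 H3KAc reads, or 2.59 RPM (1.93 to 3.40), and no IgG read (0 to 1.94 RPM), at least 1.28-fold higher. H3KAc in region 2 was sharp: 34 of the 51 reads (66.7%) fell in its first 200 bp, from 23985001 to 23985200. Its reads were also uneven between strands, with 35 on the plus and 16 on the minus strand, against 32 and 33 in region 3. The left edge of region 2 cut through this peak. The 200-bp step centred at -500 bp from the region's centre straddles that edge, and held 16 plus-strand and 12 minus-strand reads. The share in the first 200 bp and the strand counts of region 2 thus depend on where the bin begins.

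The bins around these regions formed a broader stretch of high H3KAc and low IgG. From 23980001, the 10 consecutive bins held 15, 25, 28, 23, 21, 51, 22, 44, 65 and 7 H3KAc reads. The same bins held 1, 4, 2, 0, 0, 0, 1, 2, 1 and 0 IgG reads. The fall at the right edge was abrupt, from 65 reads to 7 in neighbouring bins. H3KAc was 0.482 RPM per kb in the 2 kb to the right of region 3 and 1.67 in the 2 kb to its left.

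Bcl6 region 1 lay 22 kb from the start of the window (23952001 to 23953000), away from this stretch. It held 55 H3KAc reads, 2.79 RPM (2.10 to 3.63), and 4 IgG reads, 2.11 RPM (0.574 to 5.40), a ratio of 1.32 (0.489 to 5.03). It was the most isolated of the regions, at 5.24 times the H3KAc level of the 2 kb on each side, but it did not differ from IgG beyond counting error. Its H3KAc reads were 19 on the plus strand and 36 on the minus strand.

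The most IgG reads in the Bcl6 window fell in bins with H3KAc above the window median of 8 reads but below its peaks. The bins from 23970001 and 23972001 each held 8 IgG reads, 4.22 RPM, with 21 and 15 H3KAc reads, above 92.1% and 83.5% of covered bins. Their ratios were 0.253 (0.108 to 0.660) and 0.181 (0.0718 to 0.492).

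At Cxcr5, the follicle-homing receptor, the strongest H3KAc bin of all 3 windows stood at the left edge. Region 1 (44291001 to 44292000) held 136 H3KAc reads, or 6.90 RPM (5.79 to 8.16), more than 99.9% of covered bins. It held 4 IgG reads, 2.11 RPM (0.574 to 5.40), a ratio of 3.27 (1.25 to 12.2). It lay 1 kb from the start of the window, on the side of the Bcl9l gene by gene order. H3KAc there was 4.50 times the level of the 2 kb on each side.

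Regions 2 and 3 of Cxcr5 were high in both libraries. Region 2 (44302001 to 44303000) held 78 H3KAc and 9 IgG reads, 3.96 RPM (3.13 to 4.94) and 4.74 RPM (2.17 to 9.00), a ratio of 0.834 (0.418 to 1.89). Region 3 (44306001 to 44307000) held 60 and 5 reads, 3.04 RPM (2.32 to 3.92) and 2.63 RPM (0.856 to 6.15), a ratio of 1.16 (0.469 to 3.69). Neither differed from IgG beyond counting error, so a high H3KAc count alone did not separate them from background.

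Region 4 of Cxcr5 (44318001 to 44319000) held 51 H3KAc reads, 2.59 RPM (1.93 to 3.40), and no IgG read (0 to 1.94 RPM), at least 1.28-fold higher. It was a shoulder rather than a peak, at 1.51 times the H3KAc level of the 2 kb on each side. The 4 bins on its sides held 17 IgG reads, and with IgG taken over the 11 bins centred on it the ratio fell to 1.15 (0.758 to 1.75) and the call was lost. It was also lost when reads were not moved, with a ratio of 2.45 (0.646 to 20.8). The bin from 44341001 was called with 41 H3KAc reads, 2.08 RPM, and no IgG read (lower bound 1.02), the least count that can be called.

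At Pdcd1, the gene of the inhibitory receptor PD-1, the highest H3KAc lay in a 2-kb region in the middle of the window. Region 2 (95948001 to 95950000) held 125 H3KAc reads, or 3.17 RPM per kb (2.64 to 3.78), and 4 IgG reads, 1.05 RPM per kb (0.287 to 2.70), a ratio of 3.01 (1.15 to 11.2). Its bins held 63 and 62 H3KAc reads and 3 and 1 IgG reads, and the second was called on its own, with a ratio of 5.97 (1.03 to 240). H3KAc was 3.97 times the level of the 2 kb on each side, and strands were balanced, with 65 plus and 60 minus reads.

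Pdcd1 region 1 (95932001 to 95933000) held 59 H3KAc reads, 2.99 RPM (2.28 to 3.86), and 2 IgG reads, 1.05 RPM (0.128 to 3.81), a ratio of 2.84 (0.752 to 24.0). Its ratio was close to that of region 2, but its interval included 1. It opened a stretch of raised H3KAc: the block from 95930001 to 95940000 averaged 1.40 RPM per kb, above 97.9% of covered 10-kb blocks, with IgG at 1.26 RPM per kb.

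The bin with the most IgG reads at Pdcd1 was that from 95919001, with 8 IgG reads, 4.22 RPM, and 40 H3KAc reads, 2.03 RPM, a ratio of 0.481 (0.222 to 1.19). At Cxcr5 the most IgG reads in a bin were 9, 4.74 RPM, as in region 2. It was reached in 6 bins, those from 44292001, 44302001, 44303001, 44313001, 44314001 and 44317001. Their ratios were, in this order, 0.460, 0.834, 0.374, 0.481, 0.289 and 0.471, and the intervals of 4 of them included 1. The bins with the most IgG reads in each window were picked for high IgG, which biases their ratios downwards.

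Most region calls rested on few reads. Of the 5 called regions, Bcl6 regions 2 and 3 fell to a lower bound of at most 0.916 with reads of either strand alone and with H3KAc thinned to the IgG number. Cxcr5 region 1 was lost with minus-strand reads (lower bound 0.796) and with thinned H3KAc (0.909). Cxcr5 region 4 was lost with plus-strand (0.646) and minus-strand reads (0.590), and Pdcd1 region 2 with plus-strand reads (0.670) and with thinned H3KAc (0.269). With IgG taken over the 11 bins centred on each region (12 for Pdcd1 region 2), Cxcr5 region 4 was lost too. Bcl6 region 1, Cxcr5 regions 2 and 3 and Pdcd1 region 1 gained lower bounds of 1.72, 1.14, 1.02 and 2.22. This setting widened IgG alone and kept H3KAc in the bin picked for its high level, which biases these bounds upwards. With both libraries over the same 11 kb, the ratio was 0.809 (0.507 to 1.36) at Bcl6 region 1. It was 0.726 (0.539 to 0.996) and 0.810 (0.585 to 1.15) at Cxcr5 regions 2 and 3, and 1.49 (0.897 to 2.64) at Pdcd1 region 1.

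**Figure D4:**
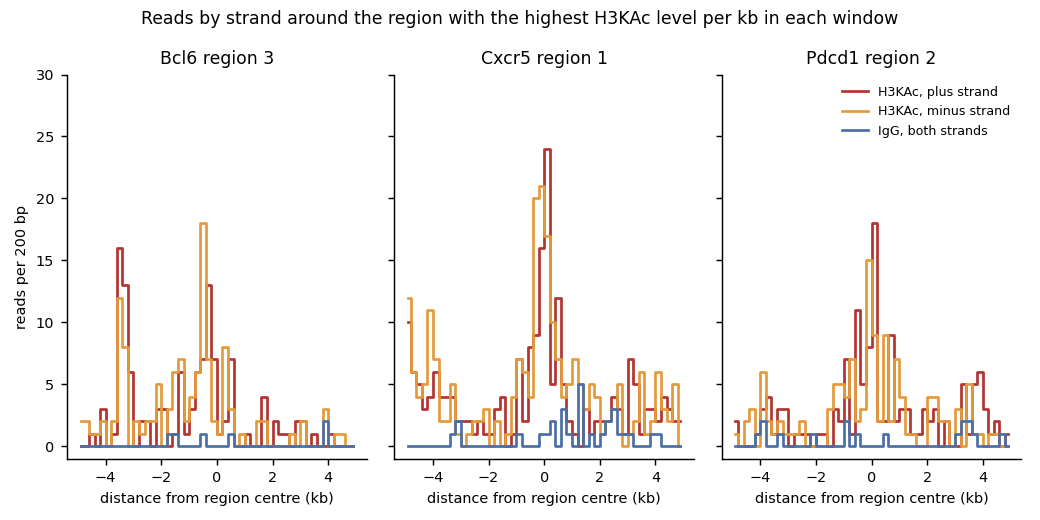
Reads per 200 bp (vertical axis) against distance in kb from the centre of the region with the highest H3KAc level per kb in each window (horizontal axis), with H3KAc split by strand and IgG summed over strands; reads were moved 100 bp. Within 1 kb of the centre of all 3 regions, the tallest minus-strand step lies 200 bp to the left of the tallest plus-strand step, and no IgG step holds more than 3 reads there.

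The strand profiles of the highest regions had the same form. In 200-bp steps, the tallest minus-strand step of H3KAc held 18 reads at Bcl6 region 3, 21 at Cxcr5 region 1 and 15 at Pdcd1 region 2. The tallest plus-strand step within 1 kb of the centre held 13, 24 and 18 reads. In each region the plus-strand maximum lay 1 step to the right of the minus-strand maximum. The move of each read by 100 bp along its strand by itself sets the strands apart by 1 such step in this direction. The shared offset is therefore no separate sign of a peak.

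Blocks of 10 kb gave more IgG reads per value, and were added after the data had been seen. Of the 23 blocks of the windows, 3 had a lower bound above 1 (background 5.29% of 251572 tested blocks) and 2 an upper bound below 1 (background 6.32%). The highest ratio resting on more than 1 IgG read was in the Bcl6 block from 23980001 to 23990000, which contains regions 2 and 3. It held 301 H3KAc and 11 IgG reads, 1.53 and 0.580 RPM per kb, a ratio of 2.63 (1.45 to 5.33), and its H3KAc was above 98.5% of covered blocks. The block on its left, from 23970001 to 23980000, held 107 and 26 reads, 0.543 and 1.37 RPM per kb, a ratio of 0.396 (0.256 to 0.634). From the left block to the right one, H3KAc rose 2.81-fold and IgG fell from 26 to 11 reads. The ratio differed 6.62-fold, the largest rise of the 20 steps between neighbouring blocks of the windows. This pair was picked after its values were seen, so its size is a description. The step into the Bcl6 block from 24010001 was a larger change in the other direction, 0.142-fold (0.00312 to 1.11). Its interval included 1, and the block before it held 1 IgG read. At Pdcd1, the steps into the blocks from 95920001, 95940001 and 95950001 were 2.52-fold, 2.34-fold and 0.303-fold. The Bcl6 blocks from 23970001 and from 23980001 kept their calls with all reads as deposited, with reads not moved and with either strand alone. They also kept them with IgG scaled by background blocks and with H3KAc thinned to the number of IgG positions.

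The Pdcd1 block from 95940001 to 95950000, which ends with region 2, held 243 H3KAc and 9 IgG reads, 1.23 and 0.474 RPM per kb, a ratio of 2.60 (1.35 to 5.75). Its lower bound fell below 1 with plus-strand reads (ratio 1.86, 0.829 to 5.17) and with thinned H3KAc (2.22, 0.967 to 5.54). The Pdcd1 block from 95910001 to 95920000 lay on the other side, with 143 and 25 reads, 0.725 and 1.32 RPM per kb and a ratio of 0.551 (0.358 to 0.879). Its upper bound rose above 1 with plus-strand reads (ratio 0.559, 0.301 to 1.13), minus-strand reads (0.543, 0.298 to 1.07) and thinned H3KAc (0.560, 0.269 to 1.12). The third block above IgG, at Bcl6 from 24000001 to 24010000, rested on 64 H3KAc reads and 1 IgG read (ratio 6.16, 1.07 to 247; 1.62, 0.900 to 3.13, with all deposited reads), and its H3KAc of 0.325 RPM per kb was near the middle of the genome (above 55.4% of blocks). No Cxcr5 block was called in either direction, with ratios between 0.731 and 1.24 and IgG between 16 and 43 reads.

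On a grid moved by 5 kb, the background was 5.24% of blocks with a lower bound above 1 and 6.35% with an upper bound below 1, and 3 and 2 of the 20 blocks of the windows were called. The Bcl6 block from 23985001 to 23995000 was called higher on this grid, at a ratio of 3.15 (1.50 to 7.92), and the Bcl6 block from 23965001 to 23975000 lower, at 0.393 (0.271 to 0.583). At Pdcd1 the block from 95945001 to 95955000, which holds region 2, was not called, at 1.41 (0.873 to 2.41), while that from 95925001 to 95935000 was, at 2.57 (1.22 to 6.49). At Cxcr5 the block from 44335001 to 44345000 was called higher, at 1.96 (1.05 to 4.16), and that from 44295001 to 44305000 lower, at 0.706 (0.510 to 0.999). The Bcl6 block from 24000001 had no called counterpart on this grid, where the blocks from 23995001 and from 24005001 had ratios of 3.23 (0.859 to 27.2) and 1.59 (0.592 to 6.00). The calls at all 3 genes thus changed with the grid. On both grids, a block called higher in the middle of the Bcl6 window had a block called lower somewhere on its left. These were neighbours only on the first grid. On the moved grid an uncalled block, starting at 23975001, stood between them, and its ratio was 1.20 (0.669 to 2.38). Both grids count the same reads, so the moved grid is no independent check of this contrast.

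**Figure D5:**
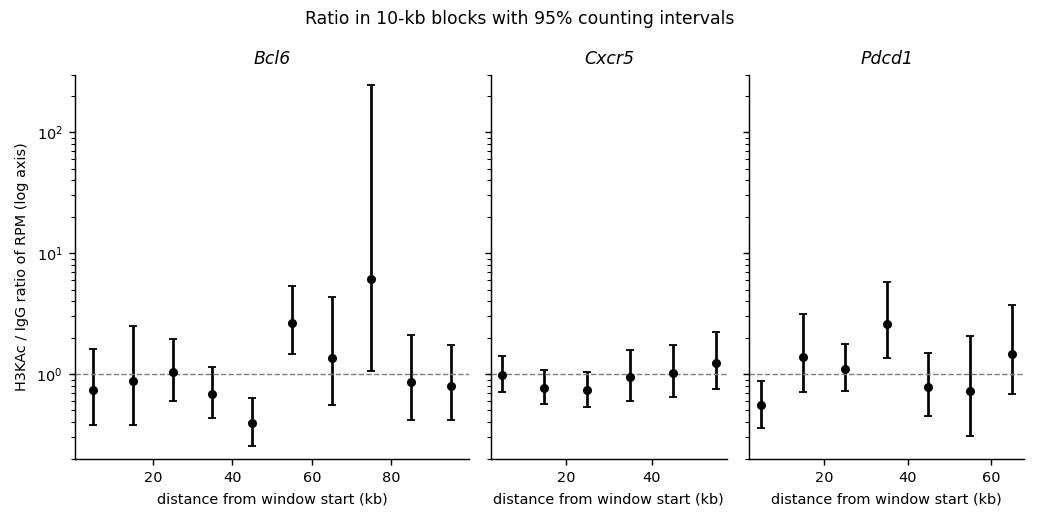
H3KAc over IgG ratio of RPM (vertical log axis) in consecutive 10-kb blocks against distance from the window start in kb (horizontal axis), with exact 95% counting intervals and a dashed line at 1. At Bcl6 the block at 40 to 50 kb lies below the line at 0.396 and the next above it at 2.63, while all 6 Cxcr5 intervals cross the line.

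Copies of reads differed between the libraries in the windows as they did elsewhere. At Bcl6 a distinct position was read 1.11 times in H3KAc and 4.25 times in IgG, at Cxcr5 1.10 and 3.52 times and at Pdcd1 1.09 and 3.95 times. The most copies at 1 position were 4 in H3KAc and 20 in IgG. The reads set aside as copies were fewer in H3KAc than in IgG per 1000000 deposited reads, with ratios of 0.114 at Bcl6, 0.127 at Cxcr5 and 0.126 at Pdcd1.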

How the data were processed

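Per the deposited readme, each file holds 1 row per aligned read with chromosome, 0-based start and end, and strand; every interval was 35 bases. The aligner was Bowtie and the build mm9, per the submitters' processing notes. Its version, its handling of reads that align to several places and any filter were not given in the sources used here. Per the labels' protocols, chromatin was crosslinked in 0.4% formaldehyde and precipitated with 7 µg of antibody, and fragments of about 200 bp were sequenced after PCR and gel purification. The deposited positions (unit: other) are unnormalized, and all counts were computed from them.

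Distinct positions were counted because PCR copies had no molecular identifier. Ratios have conditional binomial (Clopper-Pearson) intervals, levels Poisson intervals, and differences of ratio between windows or blocks conditional odds-ratio intervals. Interval coverage and the calling rule were tested on simulated data. Named were the 3 genes, all regions of bins at or above the 99th percentile, the bins with the most IgG reads in each window and every called bin. The window rule uses position alone, but the genes, windows, lists and tests were chosen with earlier results of these data known. Individual 10-kb blocks, flanks and bins moved by 500 bp were added after seeing the data. The tools were scipy 1.17.1, numpy 2.4.6 and pandas 2.3.3 under Python 3.11.15, with figures from matplotlib 3.10.9.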

Additional observations from a re-analysis of the deposited data

How the results depend on the processing

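The window ratios included 1 under all 7 alternatives, between 0.862 and 1.01 at Bcl6, 0.801 and 1.02 at Cxcr5 and 0.956 and 1.11 at Pdcd1, except Cxcr5 without its bins at or above the 99th percentile, at 0.803 (0.682 to 0.952); bins removed for high H3KAc bias this value downwards. Counting all deposited reads moved the Bcl6 over Pdcd1 ratio to 0.840 (0.715 to 0.986). Counts of called 1-kb bins (2 at Bcl6, 3 at Cxcr5 and 1 at Pdcd1) were not stable. They became 13, 17 and 18 with all deposited reads, where copies entered as if independent. Taking IgG alone over 11 bins gave 9, 7 and 8. On the plus strand alone they were 0, 1 and 0, on the minus strand 0, 0 and 0, and with thinned H3KAc 1, 1 and 0, all with fewer reads. With 500-bp bins Cxcr5 had 1 and Pdcd1 0, and a lower bound above 2 left 0 in each. For 10-kb blocks Cxcr5 had 0, and for blocks moved by 5 kb Bcl6 and Cxcr5 had 1 each. Bins at or above the percentile were 14 at Cxcr5 and 5 at Pdcd1 at the 98th, 0 at Bcl6, 2 at Cxcr5 and 0 at Pdcd1 at a stricter percentile, and 11 at Cxcr5 and 6 at Pdcd1 with 500-bp bins. Plus-strand reads put the Cxcr5 window above 98.1% of tiles. The shallow IgG library limits the ratios and the counts of called bins and blocks. No paired analysis was possible because each antibody has 1 library, and for the same reason no replicate could be left out.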
